A study of Mus musculus with 15 samples.

Results

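The E2F transcription factors and the pocket proteins that bind them were followed at the RNA level in CT26 cells, a chemically induced colon carcinoma line of BALB/c mice. The family was taken by gene name as 10 genes of the 34432 listed per library, namely E2f1, E2f2, E2f3, E2f4, E2f5, E2f7 and E2f8 for the E2F factors, and Rb1, Rbl1 and Rbl2 for the pocket proteins. The series asked how loss or inhibition of PRMT1, the main enzyme that places asymmetric dimethylarginine on proteins, changes gene expression in tumor cells. RNA-sequencing covered 5 groups of 3 libraries each in 2 experiments. In the knockdown experiment, cells with a control hairpin (shControl) were compared with cells that carried a doxycycline (DOX)-inducible hairpin against Prmt1 (shPrmt1). For shPrmt1 the study's caption on the RNA-sequencing gives 3 days of DOX. The labels do not say whether shControl cells also received DOX. In the inhibitor experiment, wild-type CT26 cells received vehicle, MS023 or GSK3368715, both inhibitors of the type I arginine methyltransferases to which PRMT1 belongs, at 6 µM for 48 hours. No label says that the 3 libraries of a group came from separate cultures, so every p-value measures only the spread between these libraries.

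E2F proteins read out the decision of a cell to start copying its DNA. In resting or early cycling cells the pocket proteins sit on E2F factors and keep their target genes low, and cyclin-dependent kinases release the factors by phosphorylating the pocket proteins. E2F1, E2F2 and E2F3 activate replication genes and pair mainly with RB (Rb1), E2F4 and E2F5 act mainly as repressors together with p107 (Rbl1) and p130 (Rbl2), and E2F7 and E2F8 are atypical repressors that bind DNA without a DP partner or a pocket protein. Several of these genes carry E2F sites of their own, and RB is a tumor suppressor lost in many cancers.

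Because the family is known to be wired back on itself, the promoters of the members were searched for the E2F consensus, written out as TTTCCCGC, TTTCGCGC, TTTGCCGC or TTTGGCGC on either strand. A position can match only 1 of these 8-letter words on a given strand. RefSeq promoter windows (GRCm38.p6, 250 bases before to 50 bases after a start) were at hand for 7 of the 10 members, in 9 windows, and not for E2f4, E2f5 or Rb1. A match was present in 1 window each of 4 members, E2f2, E2f3, E2f7 and Rbl1, whereas 2.28% of the 32544 distinct promoter windows (742) held one. The 4 stretches are shown 5′ to 3′ on the strand of the gene, with the match in capitals and the start site counted as +1.
Rbl1, chr2:157204535-157204594, minus strand, match at -18 to -11: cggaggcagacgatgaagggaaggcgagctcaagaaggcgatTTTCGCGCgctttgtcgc
E2f3, chr13:29986064-29986123, minus strand, match on the opposite strand at -11 to -4: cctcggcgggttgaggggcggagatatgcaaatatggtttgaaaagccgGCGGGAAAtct
E2f7, chr10:110745215-110745274, plus strand, match on the opposite strand at -198 to -191: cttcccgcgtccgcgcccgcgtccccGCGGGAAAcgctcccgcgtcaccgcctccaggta
E2f2, chr4:136172294-136172323, plus strand, match at 40 to 47: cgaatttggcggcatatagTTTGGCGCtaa
The windows of E2f8 and Rbl2 held none of these words, and the RefSeq start of E2f1 lies 466 bases inside the gene as GENCODE draws it, so its window is not the outermost promoter. A match describes letters only. Of the 4 genes with a match, E2f2 alone was called by limma on all libraries in any of the comparisons with control below, in the knockdown.

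The genes are spread over the mm10 genome. E2f1 lies on chromosome 2 (154559407 to 154569892, minus strand), as does Rbl1 (157145893 to 157204534, minus strand), and Rbl2 lies on chromosome 8 (91070057 to 91123844, plus strand) with E2f4 (105297663 to 105305370, plus strand). E2f2 lies on chromosome 4 (136172394 to 136196057, plus strand), E2f5 on chromosome 3 (14578641 to 14606309, plus strand) and E2f3 on chromosome 13 (29906575 to 29986063, minus strand). E2f7 lies on chromosome 10 (110745439 to 110787384, plus strand), E2f8 on chromosome 7 (48866429 to 48881596, minus strand) and Rb1 on chromosome 14 (73183673 to 73325822, minus strand). No source states whether the counting used strand, so reads of a gene and of an antisense partner cannot be told apart. This touches Rbl2, which shares 693 exonic bases with Aktip and 892 with Gm45464 on the opposite strand. It also touches Rb1, which shares 488 with Rcbtb2 and 408 with Lpar6, and E2f8, which shares 610 with Gm2788. E2f7 shares 86 with 1700020G17Rik and E2f5 26 with 1810022K09Rik. Of these partners Aktip, Rcbtb2 and Lpar6 were analysed here.

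Prmt1 itself was checked first. Its normalized count was 5646 ± 62.2 (SD, n = 3) in shControl and 704 ± 49.8 in shPrmt1, or 12.5% of control, a log2 fold change of -3.0 (SE 0.07, adjusted p = 3.8e-07, limma with Benjamini-Hochberg adjustment). In the inhibitor experiment Prmt1 was 15611 ± 488 with vehicle, 14826 ± 661 with MS023 and 15489 ± 806 with GSK3368715 (adjusted p = 0.351 and 0.914, limma). Reads on genes ran from 17284091 to 29233738 per library in the knockdown experiment and from 40119305 to 93697833 in the inhibitor experiment, and the least covered member, E2f5, had at least 246 reads in every library. Of the epithelial markers, Epcam was at 0 in all 15 libraries and Cdh1 reached at most 2.29 normalized counts, while Krt18 (378 to 1414) and Cdh17 (76.3 to 156) were present. The others were low, with Krt8 at most 26.2, Cdx2 23.8, Krt19 17.9 and Vil1 3.30. Krt18 therefore gave most of the sums that follow. The 8 epithelial markers summed to 641 to 714 in shControl against 526 to 624 in shPrmt1, and to 1029 to 1199 with vehicle against 1439 to 1564 with MS023 and 1191 to 1335 with GSK3368715. Of the 6 immune markers, only Cd14 exceeded 17.1 normalized counts in any library (425 to 1514); it fell with MS023 (log2 -0.40, adjusted p = 0.0071, limma). The 3 endothelial markers summed to at most 37.4. Krt18 changed by -0.41 in the knockdown, 0.55 with MS023 and 0.27 with GSK3368715, and Cdh17 by 0.68, -0.45 and -0.73, each past the threshold. The low Krt8 rose with MS023 from a mean of 7.43 to 24.0 (log2 1.83, adjusted p = 0.033, limma). The part of these markers in the results was not tested. In bulk RNA, fewer cells in a cell cycle phase and less RNA per cell cannot be told apart.

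E2f4 and E2f8 had the most RNA of the members when levels were set per length. In reads per kilobase of the longest transcript and per 1000000 reads on genes, shControl held 56.1 ± 2.20 of E2f4, 52.7 of E2f8, 24.3 of Rbl1 and 22.6 of E2f1. E2f7 (12.7), E2f3 (12.2), E2f5 (8.06), Rbl2 (6.34), E2f2 (5.67) and Rb1 (5.04) followed. The libraries of Rbl1 and E2f1 overlapped, as did those of E2f7 and E2f3, so the order within those pairs is not set, while the other neighbours in this order did not overlap. With vehicle the order began the same way, with E2f4 at 52.3, E2f8 at 37.8, Rbl1 at 29.9, E2f1 at 23.8 and E2f7 at 12.9 per kilobase. Rbl2 (9.44) came next, E2f3 (8.89), Rb1 (8.25) and E2f5 (7.48) overlapped in turn, and E2f2 was last at 3.55. Set per total exonic length instead, E2f4 and E2f8 had the highest means again, but E2f7 was 7.70 in shControl and 7.81 with vehicle, below E2f3 (11.4 and 8.34). On that length the vehicle libraries of E2f7 and E2f3 overlapped, as did those of E2f8 (21.7 to 29.4) and Rbl1 (23.1 to 25.4), so their order with vehicle is not set. Rbl2 with vehicle was 6.15 on that length, below E2f3, E2f5 (7.46) and Rb1 (6.39). Its libraries overlapped those of Rb1 in both control groups, so the order of these pocket genes depends on the length. p107 was the pocket protein with the most RNA. Per kilobase of the longest transcript it gave 68.1% of the sum of the 3 pocket genes in shControl (range 67.3% to 69.6%). With vehicle it gave 62.8% (61.0% to 64.6%), whereas Rb1 gave 14.1% and 17.3%. The levels of the 2 experiments come from separate libraries and were not tested against each other.

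**Figure D1:**
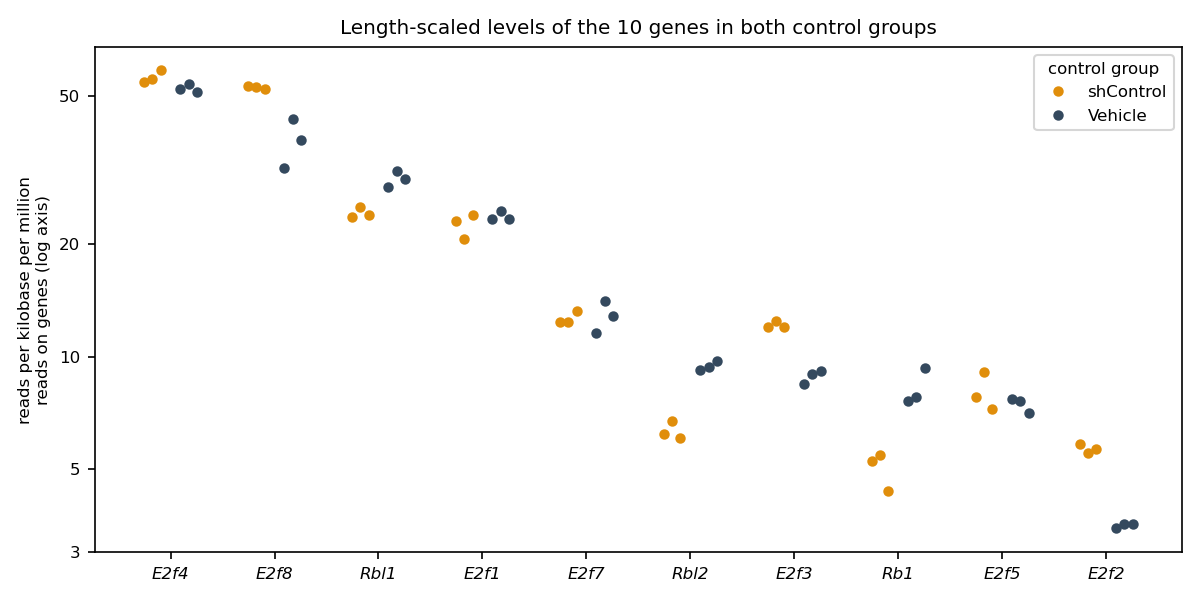
Reads per kilobase of longest transcript and per 1000000 reads on genes (log axis) for each of the 10 genes, with 1 point per library for shControl and vehicle. E2f4 lies between 51.1 and 58.5 in all 6 libraries, and E2f2 lies at the bottom with vehicle (3.49 to 3.58).

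Few members moved, and those that did moved by less than 1 on the log2 scale. After Prmt1 knockdown E2f1, E2f2 and E2f4 fell and no member rose, so that 3 of 10 passed an adjusted p of 0.05, against 14.7% of the 11485 genes tested (7.5% higher and 7.17% lower). With MS023 E2f1 and E2f5 fell and Rbl2 rose, again 3 of 10, against a background of 27.9% of 13014 genes (13.7% higher and 14.1% lower). With GSK3368715 Rbl2 alone passed, rising, which is 1 of 10 against 9.64% of genes (5.16% higher and 4.47% lower). The share of members called with either inhibitor was thus near that of all genes. The median log2 fold change of the 10 members was -0.12 in the knockdown, -0.10 with MS023 and -0.03 with GSK3368715, beside -0.004, 0.003 and 0.0004 for all genes tested. At an unadjusted p under 0.05 the counts were 5, 4 and 3 members. The share of all genes at that cut-off was not counted, so these counts have no background to be read against. Libraries of the groups compared did not overlap for 38% of all genes tested in the knockdown, 44.5% with MS023 and 27.7% with GSK3368715, against which each statement on overlap below is to be read. Scaling each library to its total read count turned the split of all genes called in the knockdown from 861 higher and 823 lower to 1082 and 666, and for MS023 the split of 1784 and 1841 became 2200 and 1509 with total and 2084 and 1080 with upper quartile scaling. The inhibitor contrasts share the 3 vehicle libraries, so their values are given side by side and are not independent.

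**Figure D2:**
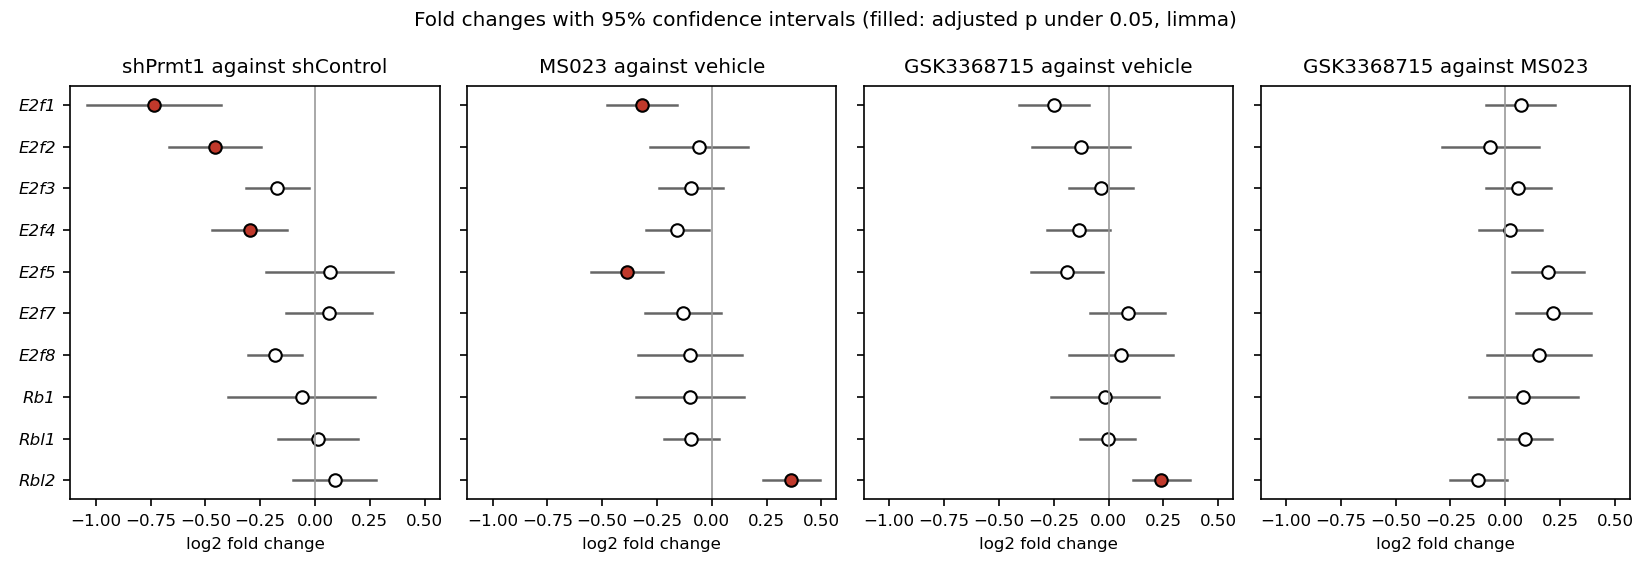
Log2 fold change (horizontal axis) of the 10 genes in the 3 comparisons with control and in GSK3368715 against MS023, with 95% confidence intervals from limma; filled points passed an adjusted p of 0.05. E2f1 in the knockdown is the farthest from 0 at -0.73, and Rbl2 is the filled point to the right of 0 with both inhibitors.

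Among the activators, E2f1 carried the largest change of the family after knockdown. E2f1, the founding member and a driver of S phase genes, had normalized counts of 1358, 1196 and 1391 in shControl and 916, 638 and 838 in shPrmt1. All shPrmt1 libraries lay below all shControl libraries, with the second shPrmt1 library the lowest. The mean fell to 60.6% of control, a log2 fold change of -0.73 (SE 0.13, 95% confidence interval -1.04 to -0.43, adjusted p = 0.0094, limma). Without each of the 6 libraries in turn E2f1 stayed called, with a change between -0.84 and -0.58. With the inhibitors the point estimates were nearer 0, a difference between experiments that was not tested. The E2f1 counts were 3844, 4104 and 3859 with vehicle, 2975, 3150 and 3352 with MS023 and 3467, 2997 and 3492 with GSK3368715. Every library of either inhibitor lay below every vehicle library. The change with MS023 was -0.32 (SE 0.07, interval -0.48 to -0.16, adjusted p = 0.0083, limma), to 80.3% of vehicle. With GSK3368715 it was -0.25 (SE 0.07, interval -0.41 to -0.09), to 84.3% of vehicle, and missed the threshold (adjusted p = 0.054, limma); DESeq2 on the recovered reads called it (adjusted p = 0.020).

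E2f2, which overlaps E2f1 in function and is known from blood cell proliferation, had counts of 589, 551 and 566 in shControl and 401, 387 and 458 in shPrmt1. The groups did not overlap. The mean fell to 73.0% of control (log2 -0.46, SE 0.09, interval -0.67 to -0.25, adjusted p = 0.014, limma). Without the first or the third shControl library the adjusted p was 0.074 or 0.061. With the inhibitors the E2f2 libraries overlapped those of vehicle (985, 1028 and 1014), at 1033, 875 and 1008 with MS023 and 1018, 794 and 979 with GSK3368715. The log2 changes were -0.06 (interval -0.28 to 0.17) and -0.13 (-0.35 to 0.10).

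E2f3, another activator, whose amplification is known from bladder cancer, was 1303, 1334 and 1291 in shControl and 1160, 1194 and 1134 in shPrmt1. These groups did not overlap either, but the log2 change of -0.17 (interval -0.32 to -0.03) missed the threshold (adjusted p = 0.105, limma). With MS023 and GSK3368715 the E2f3 changes were -0.09 (interval -0.24 to 0.05) and -0.03 (-0.18 to 0.11), and the libraries overlapped vehicle. Class shares of E2F RNA were taken per kilobase of the longest transcript and over the members, which leave out E2f6. The activators made up 22.9% to 24.3% of this E2F RNA in the shControl libraries and 19.2% to 21% after knockdown. They made up 23.8% to 25.5% with vehicle, 22.6% to 24.4% with MS023 and 22.7% to 23.5% with GSK3368715. The ranges of shControl and shPrmt1 were apart, the vehicle and MS023 ranges overlapped, and the GSK3368715 range lay below that of vehicle. These sums were not tested.

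**Figure D3:**
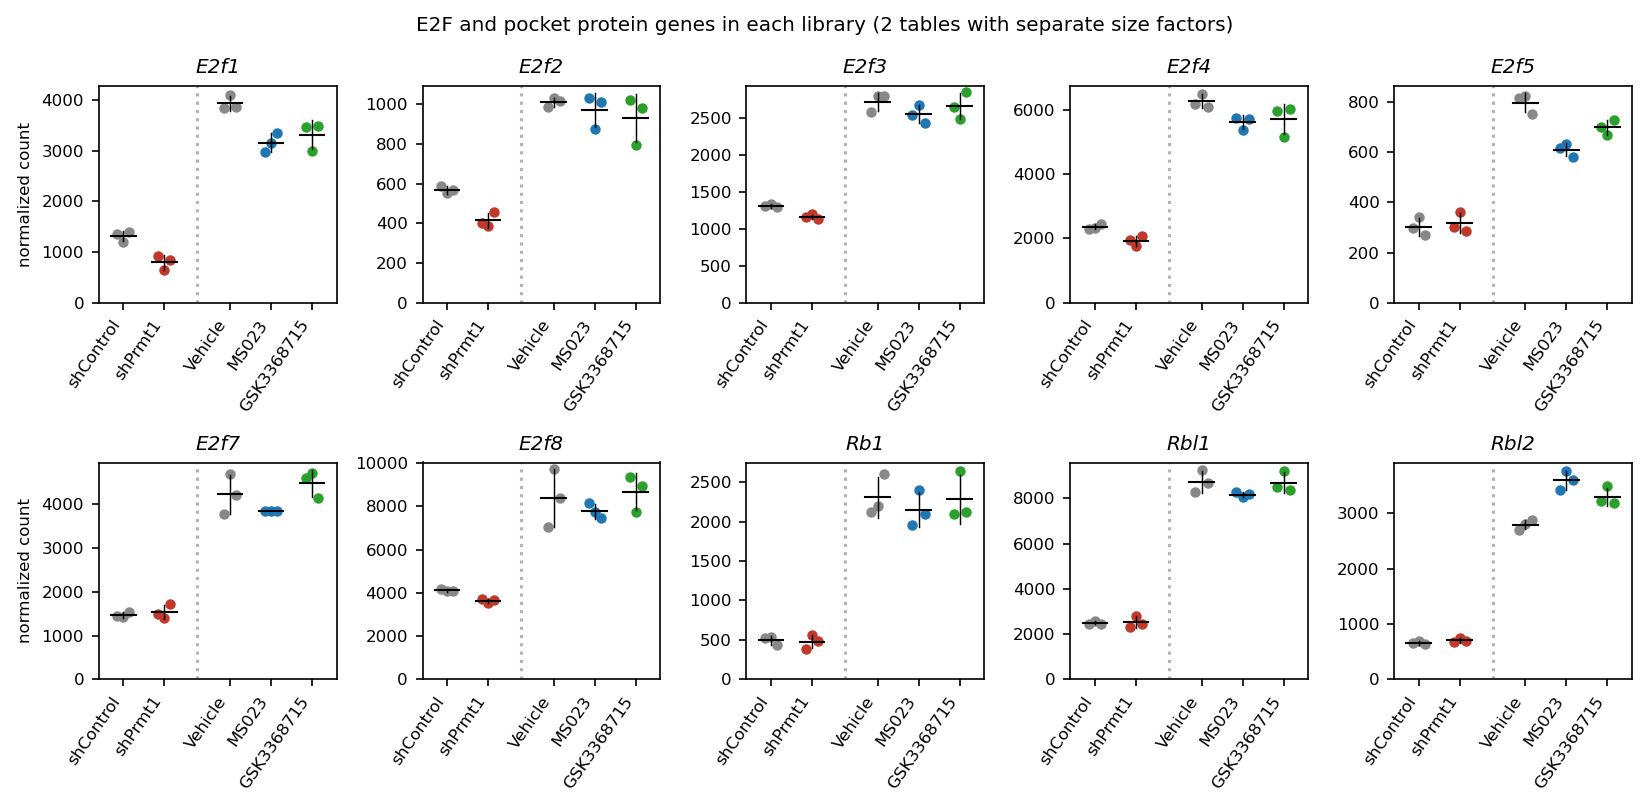
Normalized counts (vertical axes from 0) of each gene in each library, with 1 point per library, a horizontal bar at the group mean and a vertical line for 1 SD (n = 3); the dotted line parts the knockdown experiment from the inhibitor experiment, whose size factors are separate. E2f1 lies at 638 to 916 in shPrmt1 against 1196 to 1391 in shControl, and Rbl2 lies higher with either inhibitor than in any vehicle library.

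Of the E2Fs that work with p107 and p130, E2f4 fell in the knockdown and E2f5 with MS023. E2f4, the E2F with the most RNA in both control groups and the usual E2F of the repressive DREAM complex, had counts of 2307, 2324 and 2461 in shControl and 1952, 1761 and 2064 in shPrmt1. The groups did not overlap, and the mean fell to 81.5% of control (log2 -0.30, SE 0.08, interval -0.47 to -0.13, adjusted p = 0.033, limma). This call was close to the threshold. It was lost without any 1 of the 3 shControl libraries or the first shPrmt1 library (adjusted p 0.066 to 0.138), with total scaling (0.056) and without the variance trend (0.070). With MS023 the E2f4 counts were 5759, 5375 and 5708 against 6189, 6502 and 6099 with vehicle, a log2 change of -0.16 (adjusted p = 0.096, limma). With GSK3368715 they were 5958, 5169 and 6013 (log2 -0.14, adjusted p = 0.221, limma). All libraries of either inhibitor were below all vehicle libraries for E2f4, and neither change passed on all libraries. Without the second GSK3368715 library E2f4 was called with MS023 (adjusted p = 0.039, limma), beside 3726 of all genes.

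E2f5, the other E2F without an activating role in most cells, showed no shift in the knockdown, with counts of 297, 341 and 272 in shControl and 303, 362 and 288 in shPrmt1. These ranges overlapped (log2 0.07, interval -0.22 to 0.35). With vehicle E2f5 was 818, 823 and 755, with MS023 617, 632 and 582 and with GSK3368715 701, 669 and 729. The MS023 libraries were the lowest and the GSK3368715 libraries lay between, with no overlap among the 3 groups (the libraries of the 2 inhibitors did not overlap for 21.4% of all genes). The fall with MS023 was to 76.4% of vehicle (log2 -0.39, SE 0.07, interval -0.55 to -0.22, adjusted p = 0.0036, limma). With GSK3368715 the E2f5 change was -0.19 (interval -0.35 to -0.03, adjusted p = 0.133, limma).

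The atypical repressors passed in none of the comparisons with limma on all libraries. E2f8, the second most abundant member, had counts of 4176, 4102 and 4064 in shControl and 3706, 3538 and 3644 in shPrmt1. The groups did not overlap, and the log2 change of -0.18 (SE 0.05, interval -0.30 to -0.06) came near the threshold (adjusted p = 0.058, limma). E2f8 was called with a replicate block in limma (adjusted p = 0.037), with DESeq2 (0.024) and in limma without the second shPrmt1 library (0.027). With vehicle E2f8 spread widely, at 7049, 9707 and 8401, and the MS023 (8138, 7737 and 7442) and GSK3368715 libraries (9355, 7727 and 8941) lay inside that range. The intervals were wide, -0.33 to 0.14 for MS023 and -0.18 to 0.29 for GSK3368715. E2f7, its partner in restraining E2F1, was 1443, 1426 and 1535 in shControl and 1485, 1410 and 1721 in shPrmt1, and the groups overlapped. With MS023 E2f7 was 3853, 3846 and 3835, inside the vehicle range of 3786 to 4680 (log2 -0.13, interval -0.30 to 0.04). With GSK3368715 it was 4603, 4703 and 4133 (log2 0.09, interval -0.08 to 0.26). On the longest transcript, the atypical factors made up 41.5% to 42.7% of summed E2F member RNA in shPrmt1 against 37.9% to 38.8% in shControl. E2f4 and E2f5 together made up 37.5% to 38.4% and 36.9% to 38.3%. A share depends on all members of the sum, so it can rise without more RNA of its own class. Mean counts in shPrmt1 were 88.2% of control for E2f8 and 104.8% for E2f7. They were 60.6% for E2f1, 73.0% for E2f2, 88.8% for E2f3, 81.5% for E2f4 and 104.8% for E2f5. With vehicle the atypical share was 31.4% to 36.8%, with MS023 34.8% to 36.6% and with GSK3368715 36.8% to 38.6%. In shPrmt1 the order of the atypical class and of E2f4 with E2f5 depended on the length used. Per total exonic length the mean of E2f4 (38.0) lay above that of E2f8 (32.25), and E2f5 (8.61) above E2f7 (8.26). In shControl on that length E2f4 (45.6) likewise lay above E2f8 (35.7), and the mean of E2f5 (8.05) above that of E2f7 (7.70).

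Of the pocket proteins, Rbl2 rose with both inhibitors and no pocket gene was called in the knockdown. Rbl2 encodes p130, the pocket protein of quiescent cells and a subunit of the DREAM complex. Its counts were 2701, 2802 and 2871 with vehicle, 3423, 3759 and 3591 with MS023 and 3224, 3484 and 3188 with GSK3368715. All 6 inhibitor libraries lay above all vehicle libraries. The mean rose to 128.7% of vehicle with MS023 (log2 0.36, SE 0.06, interval 0.23 to 0.49, adjusted p = 0.0014, limma). With GSK3368715 it rose to 118.2% (log2 0.24, SE 0.06, interval 0.11 to 0.37, adjusted p = 0.028, limma). The MS023 call held under each of 20 alternatives, 9 of them leaving out a library, whereas the GSK3368715 call was lost in 7 of 20, among them the removal of the first or the third vehicle library or of any GSK3368715 library (highest adjusted p 0.077). In the knockdown Rbl2 was 652, 698 and 629 in shControl and 665, 751 and 691 in shPrmt1, which overlap (log2 0.09, interval -0.10 to 0.28, adjusted p = 0.494, limma). Aktip, which overlaps Rbl2 on the opposite strand, changed by -0.04 with MS023 and -0.09 with GSK3368715 (adjusted p = 0.636 and 0.395, limma).

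Rb1, the retinoblastoma gene, was 523, 536 and 430 in shControl and 390, 562 and 484 in shPrmt1. The groups overlapped, and the interval of -0.39 to 0.27 is the widest of the members in the knockdown. With vehicle Rb1 was 2118, 2200 and 2604, with MS023 1961, 2398 and 2096 and with GSK3368715 2093, 2638 and 2119, again overlapping (log2 -0.10 and -0.02). Rbl1, which encodes p107, is itself a classical E2F target. It was 2455, 2570 and 2455 in shControl and 2315, 2811 and 2452 in shPrmt1 (log2 0.01, interval -0.17 to 0.20), and 8264, 9240 and 8688 with vehicle, 8277, 8050 and 8185 with MS023 and 8487, 9228 and 8393 with GSK3368715. Its groups overlapped in all 3 comparisons. Within the pocket RNA summed per kilobase of the longest transcript, p130 made up 19.3% to 20.3% with vehicle. It made up 24.7% to 26% with MS023 and 22.3% to 23.0% with GSK3368715, 3 ranges that did not overlap. The p107 share was 61.0% to 64.6%, 56.4% to 60.4% and 59.8% to 61.3%.

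Single libraries recur in these values. The second shPrmt1 library was the lowest of its group for E2f1, E2f2, E2f4, E2f7 and E2f8 and the highest for the other 5 members, and without it 5 members were called in the knockdown (E2f3 and E2f8 in addition, both lower), beside 2472 of all genes in place of 1684. Without the first or the third shControl library 1 member was called, E2f1, beside 652 or 723 of all genes. The second GSK3368715 library was the lowest of its group for E2f1, E2f2, E2f3, E2f4, E2f5 and E2f8.

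The 2 inhibitors, at the same dose and time, were compared directly over the 10 members. None of the 10 differences passed an adjusted p of 0.05 with limma, edgeR or DESeq2, where 0.515% of all genes did with limma (67 of 13014), and 2 had an unadjusted p under 0.05. The share of all genes at that unadjusted cut-off was not counted. E2f7 was 0.22 higher with GSK3368715 than with MS023 on the log2 scale (interval 0.05 to 0.39, adjusted p = 0.265, limma), and E2f5 was 0.20 higher (0.03 to 0.36, adjusted p = 0.290, limma). For Rbl2 the difference was -0.12 (interval -0.25 to 0.007), and for E2f1 0.07 (-0.09 to 0.23). The intervals of the other members reached from -0.29 at the lowest (E2f2) to 0.39 at the highest (E2f8). A p that missed the threshold does not show that the compounds act alike on these genes.

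The genes around the family were taken from lists of its partners, of the kinases and inhibitors above it, and of its targets, each read against the same backgrounds as the members. Of 13 partners 12 were tested, and Lin54 was not analysed here. In the knockdown 1 fell, Rbbp4 (log2 -0.24, adjusted p = 0.024, limma), a histone-binding subunit of the MuvB core. With MS023 2 rose, Hdac1 (0.30, adjusted p = 0.0011), a histone deacetylase recruited by pocket proteins, and E2f6 (0.19, adjusted p = 0.0496), a repressor E2F that binds no pocket protein. With GSK3368715 Hdac1 rose (0.28, adjusted p = 0.0054, limma). The DP partners Tfdp1 and Tfdp2 were called in none of these. The shares of partners called were 8.33% in the knockdown, 16.7% with MS023 and 8.33% with GSK3368715. The shares of all genes were 14.7%, 27.9% and 9.64%. The median over the partners was 0.06, 0.03 and 0.02. Without 1 library the counts ran from 0 to 2 in the knockdown (0 without any shControl library or the first or the third of shPrmt1). With MS023 1 partner was left in 6 of 9 such fits. Over all genes such fits called 652 to 2472 in the knockdown and 2409 to 3726 with MS023.

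Of 16 G1 cyclins, kinases and their inhibitors, 13 were tested. The shares called were 15.4% in the knockdown, 7.69% with MS023 and 0% with GSK3368715, against 14.7%, 27.9% and 9.64% of all genes. In the knockdown Ccnd1, which encodes cyclin D1, rose (log2 0.29, SE 0.06, adjusted p = 0.012, limma), from a normalized count of 19913 ± 608 to 24405 ± 1064 (SD, n = 3). Cdkn2d, which encodes the CDK4/6 inhibitor p19-INK4D, fell from 1154 ± 103 to 737 ± 63.5 (log2 -0.64, SE 0.10, adjusted p = 0.0042, limma). With MS023 1 was called, Ccne2, which encodes cyclin E2 and is itself E2F-driven. It fell from 3180 ± 645 to 2318 ± 260 (log2 -0.44, SE 0.13, adjusted p = 0.028, limma), and its groups overlapped. With upper quartile scaling the 1 regulator called with MS023 was higher, so that the Ccne2 call was lost. With GSK3368715 none of the 13 passed with limma, edgeR or DESeq2, and 1 had an unadjusted p under 0.05 in limma, 1 in edgeR and 2 in DESeq2. No share of all genes was counted at this unadjusted cut-off. The knockdown count of 2 was 1 without any shControl library (652, 883 or 723 of all genes) and 5 without the second shPrmt1 library (2472). The MS023 count of 1 was 0 without the second or the third vehicle library (3409 or 2602 of all genes) or the second MS023 library (2409). It was 2 without the second GSK3368715 library (3726 of all genes).

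Of 53 listed E2F targets 52 were tested. These are mostly replication and repair genes. In the knockdown 6 fell and none rose (11.5% called against 14.7% of all genes, with 7.17% lower), with a median log2 change of -0.08. Other settings called a few higher, 2 beside 9 lower with a replicate block, 2 beside 8 with DESeq2, and 1 beside 6 with edgeR or with total scaling. The 6 were Brca2, Tyms, Tk1, Lig1, Rfc4 and Asf1b. Brca2, a homologous recombination gene, fell from 2136 ± 198 to 1431 ± 146 (log2 -0.58, adjusted p = 0.0074, limma), and Tyms, which encodes thymidylate synthase, from 1467 ± 50.3 to 1066 ± 36.1 (-0.46, adjusted p = 0.0035). With MS023 14 of 52 were called (26.9% against 27.9% of all genes), 6 higher and 8 lower, with a median of 0.002. The balance of directions turned to 7 higher and 3 lower with upper quartile scaling (median 0.06) and to 10 and 5 with total scaling (0.04). Without the second vehicle library it was 12 and 5 (0.05). Over all genes tested the medians in these 3 settings were 0.06, 0.04 and 0.006. All genes called split into 2084 higher and 1080 lower, 2200 and 1509, and 1653 and 1756. The 2 scalings thus moved all genes by as much as the targets. The largest rises were in Cdc6 (0.39, adjusted p = 0.011, limma) and Cdt1 (0.28, adjusted p = 0.0042), which license replication origins. The largest falls were in Brca2 (-0.66, adjusted p = 0.00025) and Rfc4 (-0.43, adjusted p = 0.0014), a subunit of the PCNA clamp loader. With GSK3368715 3 were called (5.77% against 9.64%), Timeless higher (0.20, adjusted p = 0.045, limma) and Brca2 (-0.41, adjusted p = 0.010) and Chaf1b (-0.29, adjusted p = 0.014) lower, with a median of 0.02. Timeless protects replication forks and Chaf1b loads histones behind them. Brca2 was the target called in all 3 comparisons, each time lower. Without any shControl library 2 targets were called in the knockdown, and without the second shPrmt1 library 11. With MS023 9 targets were called without the first or the second MS023 library, beside 2661 or 2409 of all genes. With GSK3368715 5 were called without the second vehicle library, beside 1274 of all genes.

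Of the 24 G2 and mitotic genes that the DREAM complex is known to repress, 1 was called in the knockdown, Cdc25c, which activates CDK1 (log2 -0.50, adjusted p = 0.0076, limma), and 3 were called without the second shPrmt1 library. The share called on all libraries was 4.17%, against 14.7% of all genes. Without the second shPrmt1 library 2472 of all genes were called. With MS023 8 fell and none rose (33.3% called against 27.9% of all genes, with 14.1% lower), with a median of -0.13; total scaling gave 7 lower and 1 higher, and upper quartile scaling 5 lower. Cdc25c (-0.41, adjusted p = 0.0022, limma) and Cenpe, a kinetochore motor (-0.40, adjusted p = 0.0056), fell most, and the others were Ube2c, Birc5, Aurkb, Tpx2, Kif23 and Ccnb2. With GSK3368715 3 fell, Aurkb (-0.22, adjusted p = 0.047, limma), Ube2c (-0.19, adjusted p = 0.047) and Birc5 (-0.19, adjusted p = 0.030). This was 12.5% called, near the 9.64% of all genes. Aurkb and Birc5 encode subunits of the chromosomal passenger complex and Ube2c a ubiquitin-conjugating enzyme of the anaphase-promoting complex. Each of these 3 was also called with MS023, which shares the vehicle libraries. The G2 and mitotic count with GSK3368715 was 0 or 1 without any 1 of the 9 libraries, beside 586 to 1274 of all genes.

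**Figure D4:**
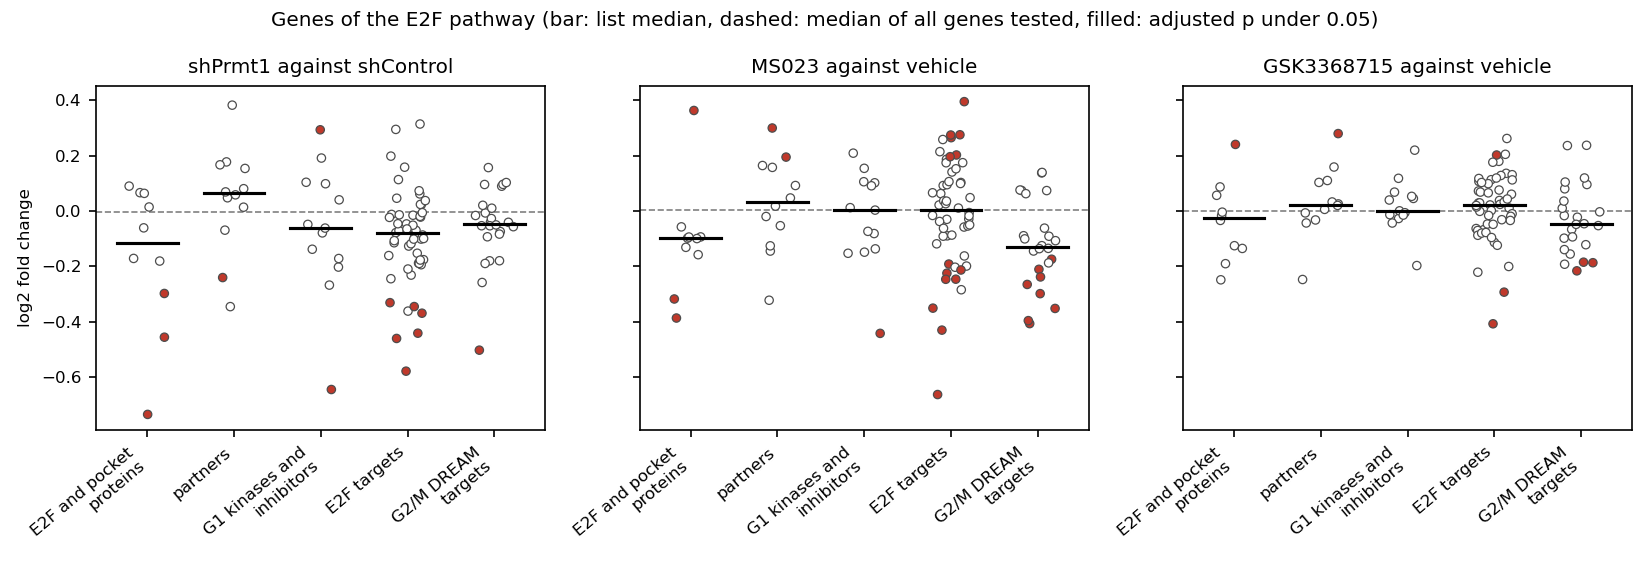
Log2 fold change (vertical axis) of every tested gene of the family and of the 4 lists around it, with 1 point per gene, a bar at the list median and a dashed line at the median of all genes; filled points passed an adjusted p of 0.05. In the knockdown the filled E2F targets all lie below 0. With MS023 they lie on both sides, 6 above and 8 below, a split that becomes 7 and 3 with upper quartile and 10 and 5 with total scaling. Over all genes called with MS023, 1784 higher and 1841 lower became 2084 and 1080 with upper quartile scaling. With total scaling they became 2200 and 1509. The filled G2/M genes all lie below 0.

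The genes whose pattern came closest to a member called in at least 2 comparisons were found over all 15 libraries among 10001 genes, by the root mean square distance of log2 values from the control mean of the same experiment. For E2f1 these were Septin5 (distance 0.074), Dap (0.084) and Epn1 (0.087). Septin5 changed by -0.63 in the knockdown, -0.35 with MS023 and -0.28 with GSK3368715, beside -0.73, -0.32 and -0.25 for E2f1. For Rbl2 they were Gpalpp1 (0.063), Aldh9a1 (0.064) and St3gal5 (0.067). Aldh9a1 changed by 0.12, 0.37 and 0.22, beside 0.09, 0.36 and 0.24 for Rbl2. The genes were picked for nearness in these same libraries, so their similar fold changes follow from the choice.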

How the data were processed

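CT26 RNA was sequenced as paired-end reads, which the authors quantified with Salmon 1.4.0 on mm10 and tested with DESeq2. The normalized counts the authors deposited are gene counts divided by size factors (a normalized signal), in 1 table per experiment. All values (100%) were whole multiples of 1 step per library within a tolerance of 0.01, so whole reads were recovered. Salmon estimates counts, so these are rounded estimates. The authors' comparison tables (fold changes and p-values) were not used.

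A gene entered a fit when 3 or more of its libraries reached 10 normalized counts, and it was tested on log2(normalized count + 1) with limma 3.58.1 (lmFit, eBayes with trend; R 4.3.3), two-sided, with Benjamini-Hochberg adjustment over all genes tested and a threshold of 0.05. This scale understates changes of low genes. The knockdown fit used 6 libraries, and 1 fit of 9 libraries gave both inhibitor contrasts and their difference. The limma script was tested on simulated data. edgeR 4.0.16 and DESeq2 1.42.0 on recovered reads, scaling, filters, pseudocounts, a replicate block and libraries left out were alternatives. Lengths came from GENCODE M21 and promoters from RefSeq. Doses and times come from the study's figure captions.

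Members and lists were chosen with earlier results of these data known. Named genes were all members, the 2 called genes per list and comparison with the largest rise and fall (at least 50 normalized counts), and the 3 genes nearest in pattern to members called at least in 2 comparisons with control. Other called genes of the lists were named after their values were seen.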

Additional observations from a re-analysis of the deposited data

How the results depend on the processing

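Of the members called, E2f1 in the knockdown and with MS023, E2f5 with MS023 and Rbl2 with MS023 kept direction and call under every alternative run; E2f2 and E2f4 in the knockdown and Rbl2 with GSK3368715 did not, as given beside their values. The cause was not tested. All 10 members passed the low-count filter, with at least 246 reads per library. Deviations from the group means correlated weakly between same-numbered libraries. The correlations were 0.06, 0.12 and 0.08 in the knockdown and ran from -0.10 to 0.11 in the inhibitor experiment. These values do not settle whether the replicate numbers pair the libraries. With a replicate block the calls over all genes were 2671 in the knockdown, 3219 with MS023, 860 with GSK3368715 and 4 between the inhibitors. Without it they were 1684, 3625, 1254 and 67. In the knockdown the block lowered the median SE from 0.105 to 0.086. With that replicate block 4 members (E2f8 in addition), 11 E2F targets, 3 partners, 5 G1 regulators and 2 G2/M genes were called in the knockdown, 1 partner and 0 G1 regulators with MS023, and 0 G2/M genes with GSK3368715.

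With DESeq2, which called 2151 genes in the knockdown, 4026 with MS023, 1794 with GSK3368715 and 365 between the inhibitors, the calls were 4 members (E2f8 in addition), 10 E2F targets, 2 partners and 2 G2/M genes in the knockdown, and 2 members and 6 E2F targets with GSK3368715. With edgeR 1 G2/M gene was called with GSK3368715, beside 1242 of all genes (1254 in the main fit). Upper quartile scaling gave 2 partners in the knockdown, 1 partner and 5 G2/M genes with MS023, and 0 members, 1 E2F target and 0 G2/M genes with GSK3368715. Over all genes it called 1553 in the knockdown, 3164 with MS023 and 886 with GSK3368715 (1684, 3625 and 1254 in the main fits). Total scaling gave 5 E2F targets and 1 G2/M gene with GSK3368715, beside 1243 of all genes. In a fit of only the 2 groups compared, 2 G1 regulators were called with MS023, and 0 members and 0 G2/M genes with GSK3368715. Over all genes that fit called 3524 with MS023 and 597 with GSK3368715. Without the variance trend 0 partners were called in the knockdown, 0 G1 regulators with MS023 and 1 G2/M gene with GSK3368715. The calls over all genes were then 1336, 3254 and 1004. A pseudocount of 5 gave 2 partners in the knockdown and 1 with MS023, a minimum of 50 gave 2 partners in the knockdown, and no filter gave 1 partner with MS023 and 1 G2/M gene with GSK3368715. Calls over all genes were 1708 and 3659 with that pseudocount, 1611 with that minimum, and 3172 and 963 without a filter.

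Leaving out 1 library in turn, the knockdown calls ran from 1 to 5 members, 2 to 11 E2F targets, 0 to 2 partners, 1 to 5 G1 regulators and 1 to 3 G2/M genes. The MS023 calls ran from 3 to 4 members, 9 to 17 E2F targets, 1 to 2 partners, 0 to 2 G1 regulators and 7 to 10 G2/M genes. The GSK3368715 calls ran from 0 to 1 members, 2 to 5 E2F targets and 0 to 1 G2/M genes. Calls over all genes ran from 652 to 2472 in the knockdown, 2409 to 3726 with MS023 and 586 to 1274 with GSK3368715. In the knockdown the E2F target count was lowest without any shControl library and highest without the second shPrmt1 library, which also gave the highest counts of members, G1 regulators and G2/M genes.

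The sign changed only for members that were not called. Upper quartile scaling turned E2f2 with MS023 to 0.0015, E2f4 between the inhibitors to -0.024, Rbl1 in the knockdown to -0.011 and Rbl1 with GSK3368715 to 0.0078, where total scaling gave 0.0103. Leaving out libraries, the log2 change in the knockdown ran from -0.032 to 0.15 for E2f5, -0.020 to 0.12 for E2f7, -0.19 to 0.079 for Rb1 and -0.065 to 0.075 for Rbl1. With MS023 it ran from -0.10 to 0.016 for E2f2 and -0.22 to 0.013 for E2f8. With GSK3368715 it ran from -0.084 to 0.013 for E2f3, -0.063 to 0.17 for E2f8, -0.13 to 0.073 for Rb1 and -0.047 to 0.037 for Rbl1. Between the inhibitors it ran from -0.14 to 0.042 for E2f2, -0.016 to 0.093 for E2f4 and -0.026 to 0.16 for Rb1.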
